A study of Mus musculus and Homo sapiens with 107 samples.

Results

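ATF4, ATF5, DDIT3, DDIT4, TRIB3, CHAC1, ASNS, PSAT1, HSPA5 and XBP1 are 10 genes of the unfolded protein response and of the ATF4 branch of the stress response. They were picked by Ensembl identifier, with earlier results of these data known, so their counts of calls do not come from a blind choice. All 10 were found among the 24019 genes of the H1299 count table and the 24353 genes of the A549 count table. All 10 also passed the filter on low counts in each line. H1299 and A549, established cell lines from human non-small-cell lung cancers, are labelled as wild type (wt). Each was given BRM014 at 5 µM or the solvent DMSO for 12 h, with 3 RNA-seq libraries for each line and treatment. BRM014 allosterically blocks BRM and BRG1, the motor proteins that power SWI/SNF remodelling of chromatin, and both lines are known from earlier work to lack functional BRG1. H1299 cells were grown in RPMI and their libraries amplified for 8 cycles of PCR, while A549 cells were grown in F12-K and their libraries amplified for 9, so line, medium and cycle number cannot be told apart. The titles of the control samples give DMSO at 0.05% and their treatment field gives 0.5%. The series holds 107 samples, of which the other 95 were not used here.

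When unfolded proteins accumulate in the endoplasmic reticulum (ER), the kinase PERK phosphorylates the initiation factor eIF2, which slows protein synthesis as a whole while the mRNA of ATF4 is translated more. Related kinases do the same in amino acid shortage and other stresses, and ATF4 then activates genes for amino acid synthesis and transport and for the outcome of stress. A parallel arm runs through IRE1, which splices XBP1 mRNA into a form that encodes an active transcription factor, and through ATF6, and raises ER chaperones such as HSPA5. Counts per gene measure neither the translation of ATF4 nor the splicing of XBP1.

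The H1299 libraries held 30602193 to 41780029 counts with BRM014 and 28412113 to 40072734 with DMSO, and the A549 libraries held 42417643 to 44910378 with BRM014 and 40684360 to 50177678 with DMSO. The 10 genes had 210 to 21931 counts in a library, so that the counting error of a single value was 6.9% at most. Of the A549 libraries with BRM014, 1 carries the replicate number 3 and the other two share a column header. Those are called a and b here, in column order. Levels are given as CPM, counts relative to library size, scaled with TMM factors over all 12 libraries. This puts both lines on 1 scale but does not correct for gene length. Levels of different genes are therefore not compared. Fold changes come from a fit of each line alone, and their log2 values differed by at most 0.02 from the log2 ratio of the mean levels printed here.

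Between BRM014 and DMSO, the genes did not move as 1 block. ASNS, PSAT1 and CHAC1 rose in both lines, and DDIT4 and XBP1 fell in both lines. ATF4 itself did not pass the test in either line, with estimates of -4.34% in H1299 and 4.86% in A549. In H1299, 5 of the 10 genes passed an adjusted p of 0.05 in edgeR's quasi-likelihood test, against 22% of all genes tested. Of these, 3 rose (9.29% of all genes did) and 2 fell (12.7% of all genes). In A549, 9 of the 10 genes passed, against 37% of all genes. There, 5 rose (17.7% of all genes) and 4 fell (19.4% of all genes). With a filter of at least 5 CPM in 3 libraries, 5 genes passed in H1299, against 27.1% of all genes tested. In A549, 9 did with that filter, against 40.3%. The genes that passed in A549 and not in H1299 were ATF5, DDIT3, TRIB3 and HSPA5, and no gene passed in H1299 alone or in opposite directions. The median log2 fold change of the 10 genes was 0.02 in H1299, where it was 0.00 over all genes tested, and 0.13 in A549, where it was 0.02. In H1299 the median of the 10 genes was 0.01 without BRM014 replicate 2, 0.04 without BRM014 replicate 1 and 0.05 with library totals, and in A549 it was 0.04 without libraries a and b. With library totals the median over all genes was also higher, at 0.04 in H1299. In A549, library totals gave 0.19 for the 10 genes and 0.07 over all genes. The median absolute log2 fold change was 0.16 in H1299 and 0.43 in A549, against 0.10 and 0.16 over all genes in H1299 and A549. In these bulk libraries, a change in every cell and a change in the share of cells that express a gene cannot be told apart.

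**Figure D1:**
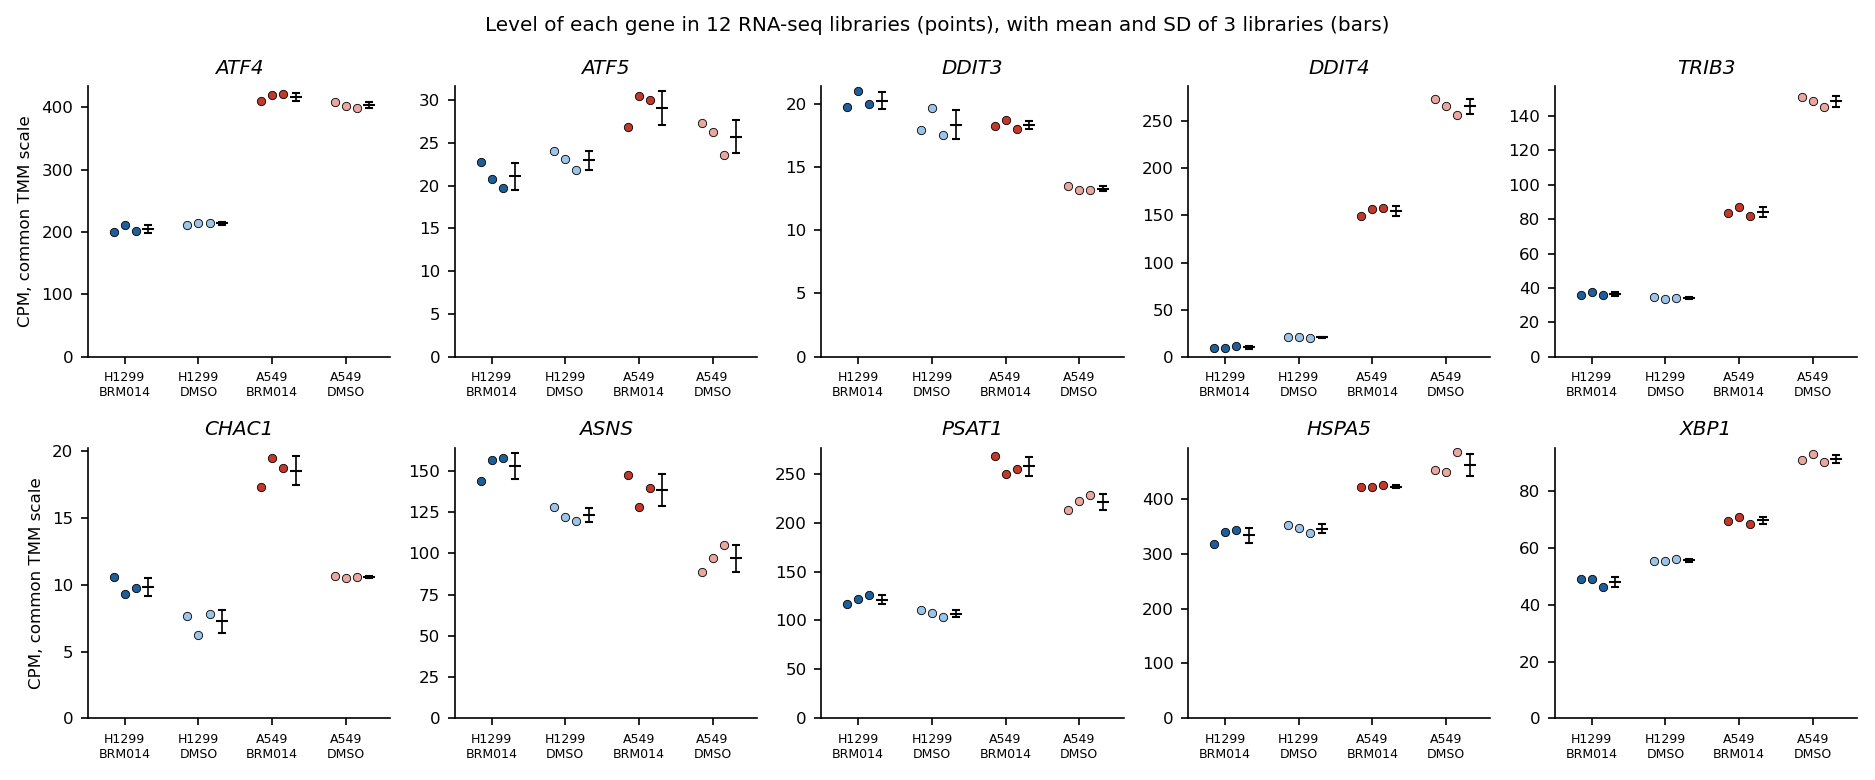
Level of each gene, in CPM on the common TMM scale, in the 3 libraries of each line and treatment (points), with the mean and SD beside them (bars), on axes that start at 0. DDIT4 lay between 9.01 and 21.1 CPM in all H1299 libraries and between 149 and 274 CPM in all A549 libraries, and the BRM014 libraries of each line were below its DMSO libraries.

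**Figure D2:**
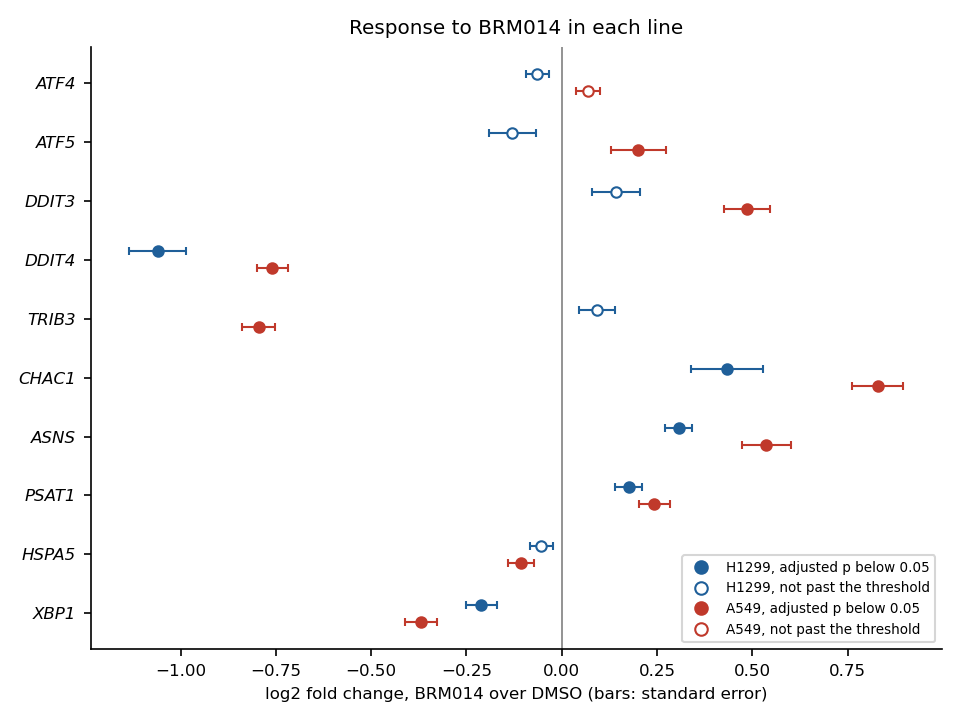
Log2 fold change of each gene, BRM014 over DMSO, in H1299 (blue) and A549 (red), with standard errors. Filled points passed an adjusted p of 0.05 in edgeR. CHAC1, ASNS and PSAT1 lie to the right of 0 in both lines and DDIT4 and XBP1 to the left, while TRIB3 was at 0.09 in H1299 and at -0.80 in A549.

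ATF4 (ENSG00000128272), the transcription factor at the head of the branch, had 201, 212 and 202 CPM in H1299 with BRM014, against 212, 215 and 215 CPM with DMSO. The log2 fold change was -0.06 (standard error 0.03, adjusted p = 0.136), a change of -4.34%. In A549, ATF4 had 409.6, 419.8 and 421 CPM with BRM014, against 409, 403 and 399 CPM with DMSO, a log2 fold change of 0.07 (standard error 0.03, adjusted p = 0.106). The 95% intervals, not adjusted for the number of genes tested, ran from -8.34% to -0.18% in H1299 and from 0.06% to 9.9% in A549. The groups did not overlap in either line, but they were separated by less than 1 CPM at their nearest libraries, and 63.1% of all genes in H1299 and 75.2% in A549 had a larger absolute change. ATF4 passed the threshold in H1299 when BRM014 replicate 2 was left out (log2 fold change -0.08, adjusted p = 0.0249) and in A549 when library totals replaced TMM factors (0.12, adjusted p = 0.0117). With replicate numbers fitted as a block in A549, ATF4 passed with a as 1 and b as 2 (adjusted p = 0.00636). It did not pass with a as 2 and b as 1 (0.145).

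ATF5 (ENSG00000169136) encodes a related factor that is also controlled by translation under stress. In H1299 it lay between 19.7 and 22.8 CPM with BRM014 and between 21.8 and 24 CPM with DMSO, so that the groups overlapped (log2 fold change -0.13, standard error 0.06, adjusted p = 0.139). ATF5 in A549 lay between 26.8 and 30.4 CPM with BRM014 and between 23.6 and 27.3 CPM with DMSO, again overlapping. Its rise there passed the threshold narrowly (log2 fold change 0.20, standard error 0.07, adjusted p = 0.0478). That call was lost without DMSO replicate 2 (adjusted p = 0.0984), DMSO replicate 3 (0.179), library a (0.131) or library b (0.152), and with DESeq2 size factors (0.0508). With replicate numbers fitted as a block it held, with a as 1 and b as 2 (adjusted p = 0.000598) or the reverse (0.024). Without libraries a and b together, which leaves 1 A549 BRM014 library, the log2 fold change was 0.06. In H1299 it passed as a fall without BRM014 replicate 1 (-0.19, adjusted p = 0.0309).

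Of the genes of the stress outcome, CHAC1 rose and DDIT4 fell in each line, whereas DDIT3 and TRIB3 passed the test in A549 and not in H1299. DDIT3 (ENSG00000175197) encodes CHOP, a transcription factor linked to cell death in lasting ER stress. In H1299 it had 19.7, 21 and 20 CPM with BRM014, against 17.9, 19.6 and 17.5 CPM with DMSO. The highest DMSO library came within 0.1 CPM of the lowest BRM014 library, and the log2 fold change of 0.14 (standard error 0.06) did not pass (adjusted p = 0.104). It passed without DMSO replicate 2 (0.19, adjusted p = 0.0477) and with library totals (0.17, adjusted p = 0.041). DDIT3 in A549 had 18.2, 18.7 and 18 CPM with BRM014, against 13.5, 13.1 and 13.2 CPM with DMSO. These A549 groups were far apart compared with their spread, and DDIT3 rose by 40% (log2 fold change 0.49, standard error 0.06, adjusted p = 5.68e-05).

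TRIB3 (ENSG00000101255) encodes a pseudokinase that is induced by ATF4 and CHOP and restrains both ATF4 and AKT. In H1299 it had 36.1, 37.6 and 35.9 CPM with BRM014, against 34.9, 33.5 and 34.3 CPM with DMSO. The BRM014 libraries were the higher ones, by little, and the log2 fold change of 0.09 (standard error 0.05) did not pass (adjusted p = 0.164). Its 95% interval ran from -0.00 to 0.19. With library totals it was 0.13 and passed (adjusted p = 0.0474). TRIB3 in A549 had 83.5, 87.1 and 81.9 CPM with BRM014, against 151, 149 and 145 CPM with DMSO. There it fell by 42.4% (log2 fold change -0.80, standard error 0.04, adjusted p = 5.02e-08), and 9.65% of all A549 genes had a larger absolute change.

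CHAC1 (ENSG00000128965) encodes an enzyme that breaks down glutathione and is a target of the ATF4 and CHOP branch. With BRM014 it had 10.6, 9.28 and 9.72 CPM in H1299, against 7.7, 6.25 and 7.85 CPM with DMSO. It rose by 35.1% in H1299 (log2 fold change 0.43, standard error 0.09, adjusted p = 0.000595). CHAC1 in A549 had 17.3, 19.5 and 18.8 CPM with BRM014, against 10.7, 10.5 and 10.6 CPM with DMSO. The groups were apart in both lines, and the A549 rise of 77.7% was the largest of the 10 genes in that line (log2 fold change 0.83, standard error 0.07, adjusted p = 1.57e-06). CHAC1 also had the lowest counts of the 10 genes, with 210 in H1299 DMSO replicate 2.

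DDIT4 (ENSG00000168209) encodes REDD1, an inhibitor of mTORC1 that is induced by ATF4 and by low oxygen, glucocorticoids and DNA damage. In H1299 it had 9.62, 9.01 and 11.3 CPM with BRM014, against 20.6, 21.1 and 20.3 CPM with DMSO. It fell by 52%, the 1 change of at least 2-fold among the 10 genes in either line (log2 fold change -1.06, standard error 0.07, adjusted p = 8.97e-14), and 1.77% of all H1299 genes had a larger absolute change. In A549, DDIT4 had 149, 157 and 158 CPM with BRM014, against 274, 267 and 257 CPM with DMSO. It fell by 40.9% there (log2 fold change -0.76, standard error 0.04, adjusted p = 4.24e-08), with 10.4% of all genes changed by more. In both lines every BRM014 library was below every DMSO library by far more than the spread of either group.

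The enzymes of amino acid synthesis rose in both lines. ASNS (ENSG00000070669), asparagine synthetase, is a textbook ATF4 target. With BRM014 it had 144, 157 and 158 CPM in H1299, against 128, 122 and 119.8 CPM with DMSO. It rose by 23.7% (log2 fold change 0.31, standard error 0.04, adjusted p = 1.45e-08). ASNS in A549 had 148, 128 and 139 CPM with BRM014, against 88.7, 97.1 and 105 CPM with DMSO, a rise of 45.1% (log2 fold change 0.54, standard error 0.06, adjusted p = 3.95e-05). The A549 libraries varied within each treatment, with deviations from the group mean of -7.32% in BRM014 library a and -8.5% in DMSO replicate 1. Leaving out A549 libraries 1 at a time kept the log2 fold change between 0.48 and 0.60, past the threshold each time. Without a and b together it was 0.61.

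PSAT1 (ENSG00000135069) encodes phosphoserine aminotransferase, which catalyses a step of serine synthesis. In H1299 it lay between 117 and 126 CPM with BRM014 and between 103 and 110.4 CPM with DMSO, a rise of 13% (log2 fold change 0.18, standard error 0.04, adjusted p = 0.000216). PSAT1 in A549 lay between 249 and 269 CPM with BRM014 and between 213 and 229 CPM with DMSO, a rise of 18.3% (log2 fold change 0.24, standard error 0.04, adjusted p = 0.000548). The groups did not overlap in either line. These rises are small: 31.1% of all H1299 genes and 37.1% of all A549 genes changed by more.

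In the ER folding arm, XBP1 fell in both lines and HSPA5 passed the test in A549 and not in H1299. XBP1 (ENSG00000100219), whose mRNA is the substrate of IRE1, had 49.1, 49.1 and 46.1 CPM in H1299 with BRM014, against 55.4, 55.3 and 56.2 CPM with DMSO. It fell by 13.6% (log2 fold change -0.21, standard error 0.04, adjusted p = 0.000187). XBP1 in A549 had 69.5, 71 and 68.6 CPM with BRM014, against 91, 93 and 90.3 CPM with DMSO. It fell by 22.6% there (log2 fold change -0.37, standard error 0.04, adjusted p = 2.45e-05), and the groups were apart in both lines.

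HSPA5 (ENSG00000044574) encodes BiP, the chief ER chaperone and a standard readout of ER stress. In H1299 it lay between 318 and 343 CPM with BRM014 and between 337 and 353 CPM with DMSO, overlapping (log2 fold change -0.05, standard error 0.03, adjusted p = 0.23). HSPA5 in A549 lay between 421 and 425 CPM with BRM014 and between 448 and 485 CPM with DMSO. It fell by 7.13%, past the threshold (log2 fold change -0.11, standard error 0.04, adjusted p = 0.0324). With replicate numbers fitted as a block it also passed, with a as 1 and b as 2 (adjusted p = 0.000228) or the reverse (0.0403). DMSO replicate 3, at 485 CPM, was the highest library, and without it the log2 fold change was -0.07 and did not pass (adjusted p = 0.113). The call was also lost without library b (adjusted p = 0.11) or BRM014 replicate 3 (0.0639), in DESeq2 (0.0583), and with library totals, where the log2 fold change was -0.06 (adjusted p = 0.239). Without a and b together, which leaves 1 A549 BRM014 library, the log2 fold change was -0.13.

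**Figure D3:**
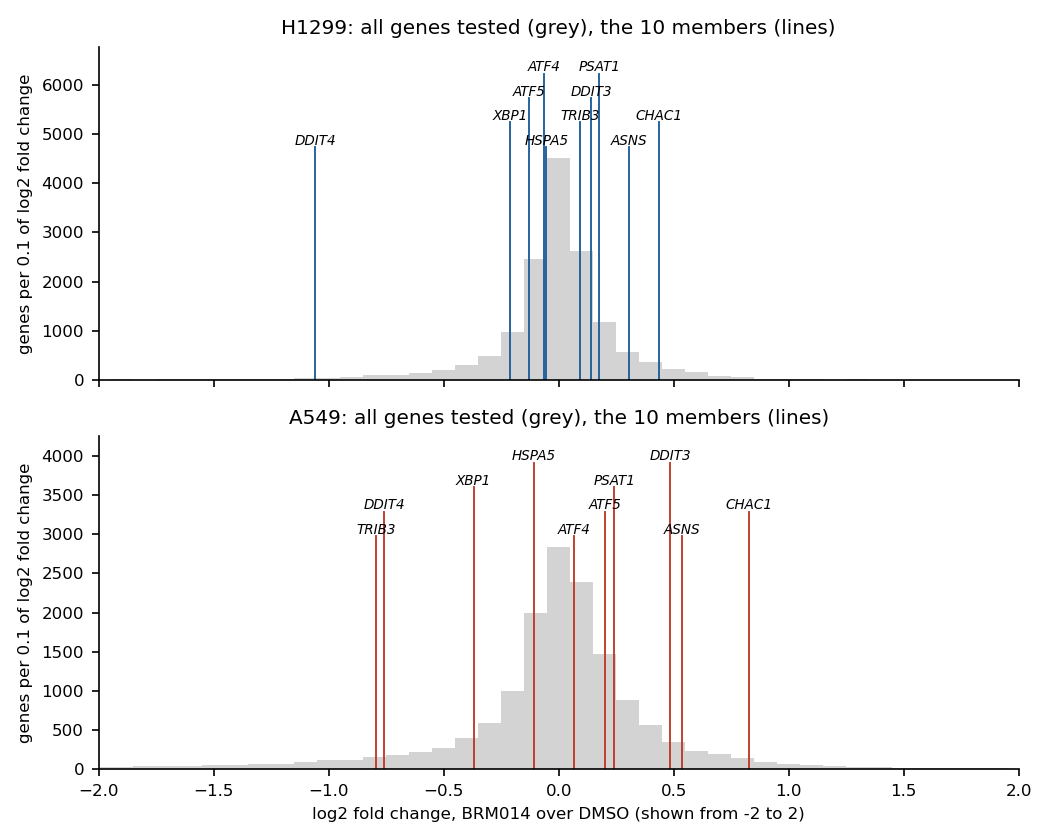
Number of genes per step of 0.1 in log2 fold change, BRM014 over DMSO, for all genes tested in H1299 (upper panel) and A549 (lower panel), with the 10 genes as lines of arbitrary height. DDIT4 lies at the left edge of the 10 genes in H1299 at -1.06, CHAC1 lies at the right edge of them in both panels, and ATF4 and HSPA5 lie within the central peak.

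A few pairs of the genes were set against each other within each library, where no scaling factor enters. The pairs were chosen after the values were seen, and no test was made. Counts of CHAC1 per count of TRIB3, both targets of the same branch, were 0.27 ± 0.0234 in H1299 with BRM014 and 0.212 ± 0.0222 with DMSO (SD, n = 3 each), a ratio of means of 1.28. In A549 they were 0.22 ± 0.0111 with BRM014 and 0.0714 ± 0.00129 with DMSO (SD, n = 3 each), a ratio of means of 3.08. The 3 A549 BRM014 libraries, at 0.208, 0.223 and 0.229, thus lay at the level of the H1299 DMSO libraries, at 0.221, 0.187 and 0.229. DDIT3 per ATF4 was 0.0987 ± 0.000503 in H1299 with BRM014 and 0.0856 ± 0.00507 with DMSO, and 0.0439 ± 0.00103 in A549 with BRM014 and 0.0329 ± 0.000208 with DMSO (SD, n = 3 each). ASNS per DDIT4 was 2.59 times as high with BRM014 as with DMSO in H1299 and 2.45 times as high in A549. HSPA5 per ATF4 was 1.63 ± 0.058 with BRM014 and 1.62 ± 0.0488 with DMSO in H1299 (SD, n = 3 each), with overlapping libraries. In A549 its libraries stood at 1.03, 1.004 and 1.01 with BRM014 and at 1.11, 1.11 and 1.21 with DMSO, without overlap.

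**Figure D4:**
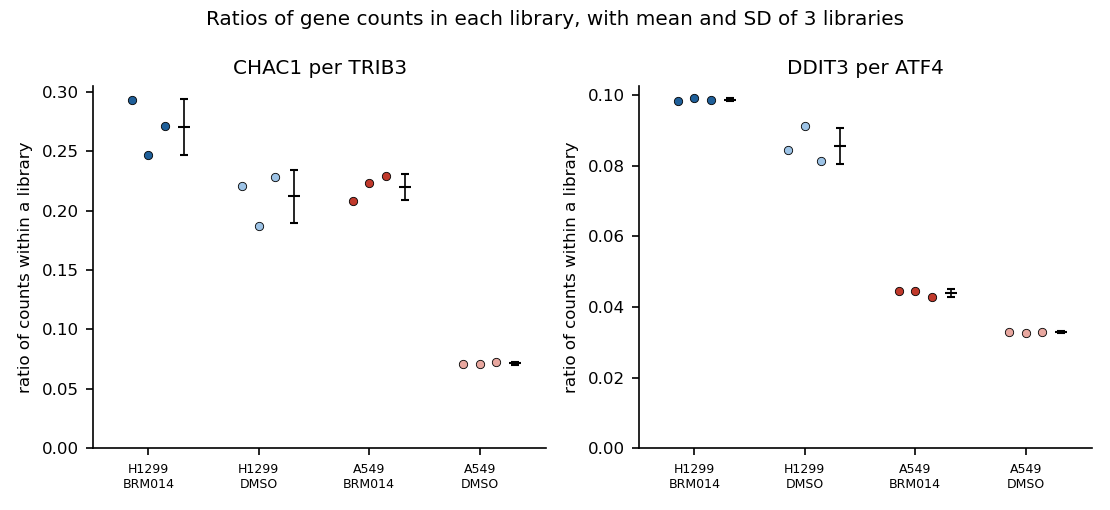
Ratio of the counts of a pair of genes within each library (points), with the mean and SD of 3 libraries (bars), for CHAC1 per TRIB3 and DDIT3 per ATF4. CHAC1 per TRIB3 stands at 0.0714 in A549 with DMSO and between 0.187 and 0.293 in the libraries of the other groups.

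Whether the lines responded differently was tested as an interaction in a joined fit of the 12 libraries, given as H1299 minus A549. It passed for 6 of the 10 genes, against 19.5% of all genes tested. In H1299, 2 genes had the more positive response (10.2% of all genes) and 4 the more negative (9.25% of all genes). With a filter of at least 5 CPM in 3 libraries, 6 of the 10 genes also passed, against 26.3% of all genes tested. The largest of the 10 differences was that of TRIB3, at 0.91 on the log2 scale (standard error 0.06, adjusted p = 7.26e-11). It stayed between 0.87 and 0.94 and past the threshold under every alternative tried. XBP1 was the other gene with a more positive response in H1299, where it fell less (log2 difference 0.18, standard error 0.06, adjusted p = 0.0335).

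The response was more negative in H1299 for DDIT3 (log2 difference -0.32, standard error 0.09, adjusted p = 0.0118), CHAC1 (-0.37, standard error 0.12, adjusted p = 0.0288), ATF5 (-0.31, standard error 0.10, adjusted p = 0.0291) and DDIT4 (-0.28, standard error 0.08, adjusted p = 0.0172). CHAC1 rose less in H1299, and DDIT4 fell further. The interaction did not pass for ASNS (-0.21, adjusted p = 0.0725), ATF4 (-0.11, adjusted p = 0.113), HSPA5 (0.08, adjusted p = 0.347) or PSAT1 (-0.04, adjusted p = 0.681). The 95% interval for PSAT1 ran from -0.16 to 0.08 and that for HSPA5 from -0.03 to 0.19. Of the 5 calls other than TRIB3, 4 were lost when single libraries were left out. The call of XBP1 was lost without any 1 of DMSO replicates 1, 2 or 3 or BRM014 replicates 1 or 2 of H1299, or without DMSO replicate 2, library b or BRM014 replicate 3 of A549 (adjusted p 0.0538 to 0.0905). That of CHAC1 was lost without DMSO replicates 1 or 3 or BRM014 replicates 2 or 3 of H1299, or without DMSO replicates 2 or 3 or library b of A549 (adjusted p 0.0511 to 0.104). That of ATF5 was lost without DMSO replicates 1 or 2 or BRM014 replicates 2 or 3 of H1299, or without DMSO replicate 3 or library b of A549 (0.0597 to 0.0965), and that of DDIT4 without BRM014 replicates 1 or 2 of H1299 (0.0524 and 0.105). The call of DDIT3 held without each library in turn and was lost without a and b together (adjusted p = 0.0504). Without those libraries, TRIB3 and ASNS (-0.30, adjusted p = 0.00651) were the genes that passed, and ATF5 was at -0.19 (adjusted p = 0.259). ASNS passed without DMSO replicate 3 (-0.26, adjusted p = 0.00851) or library a (-0.26, adjusted p = 0.00704) of A549, and ATF4 without BRM014 replicate 2 of H1299 (-0.13, adjusted p = 0.0409). With replicate numbers fitted as a block, ASNS passed with a as 1 and b as 2 (adjusted p = 0.00079) or the reverse (0.0489). ATF4 passed with a as 1 and b as 2 (adjusted p = 0.0447) and not with the reverse (0.158).

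**Figure D5:**
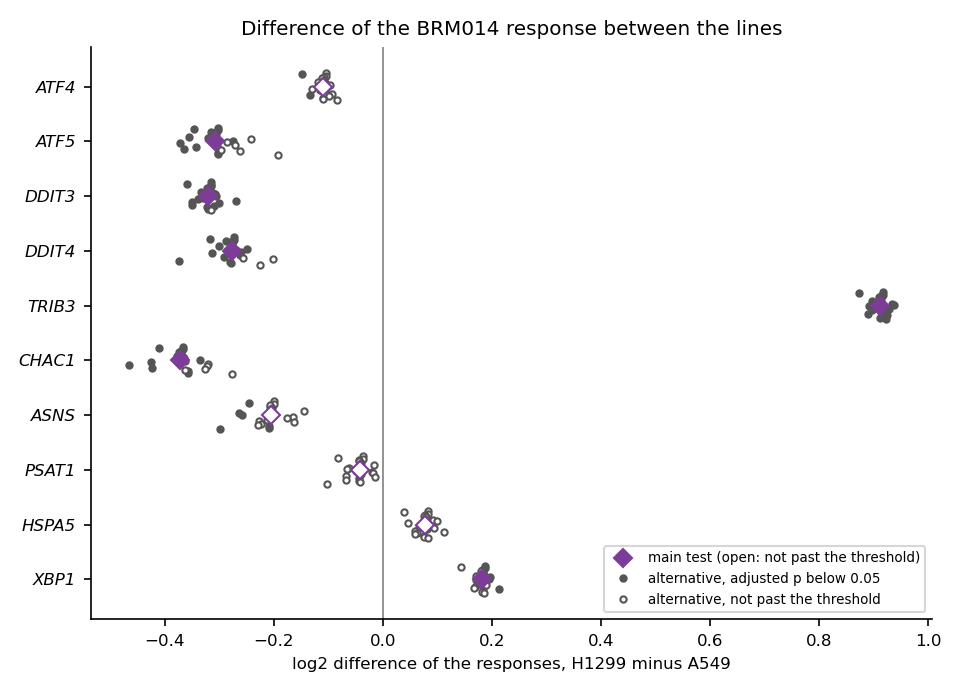
Log2 difference of the BRM014 responses, H1299 minus A549, for each gene in the main test (diamonds) and under 22 alternatives (circles), filled where the adjusted p was below 0.05. The points of TRIB3 lie between 0.87 and 0.94 and are all filled. Those of the other genes lie between -0.47 and 0.21, and ATF4, ATF5, DDIT3, DDIT4, CHAC1, ASNS and XBP1 have both filled and open points.

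Without the inhibitor, all 10 genes differed between the lines in DMSO, against 85.7% of all genes tested: 2 were higher in H1299 (42.9% of all genes) and 8 were lower (42.8% of all genes). The widest gap was that of DDIT4, at 20.7 ± 0.438 CPM in H1299 and 266 ± 8.32 CPM in A549 (SD, n = 3 each). As H1299 minus A549 this was -3.68 on the log2 scale (standard error 0.06, adjusted p = 2.65e-26). TRIB3 was at 34.2 ± 0.715 CPM in H1299 and 148 ± 3.08 CPM in A549 (log2 difference -2.11, standard error 0.04, adjusted p = 2.08e-23). PSAT1 was at 107 ± 3.57 CPM in H1299 and 221 ± 7.94 CPM in A549 (log2 difference -1.05, adjusted p = 2.03e-17), and ATF4 was at 214 ± 1.82 CPM in H1299 and 404 ± 4.82 CPM in A549 (log2 difference -0.92, adjusted p = 2.57e-18). XBP1 (log2 difference -0.72), CHAC1 (-0.54) and HSPA5 (-0.42) were lower in H1299 by less. CHAC1 was at -0.32 and HSPA5 at -0.19 when library totals were used.

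DDIT3 and ASNS were the genes that were higher in H1299. DDIT3 was at 18.3 ± 1.14 CPM in H1299 and 13.3 ± 0.208 CPM in A549 (log2 difference 0.47, standard error 0.06, adjusted p = 3.7e-07), and ASNS was at 123 ± 4.37 CPM in H1299 and 97 ± 8.2 CPM in A549 (0.35, standard error 0.06, adjusted p = 4.18e-06). ASNS was at 0.57 when library totals were used. For ATF5 the libraries of the lines overlapped, and its log2 difference of -0.16 (adjusted p = 0.0393) turned to 0.07 (adjusted p = 0.383) with library totals. With that scaling the median log2 difference over all genes was 0.24, against 0.02 with TMM factors. The call of ATF5 was lost as well without DMSO replicates 1 (adjusted p = 0.159) or 2 (0.0945) of A549 or DMSO replicates 2 (0.0713) or 3 (0.152) of H1299, and with a filter of 5 CPM in 3 libraries (0.126). All other calls between the lines kept their direction and the threshold under every alternative. The median absolute log2 difference was 0.63 over the 10 genes and 0.84 over all genes.

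Over the 4 groups, the highest mean level of a gene was 1.38 times the lowest for ATF5 and HSPA5 and 26.6 times the lowest for DDIT4. For ATF4, DDIT4, TRIB3, PSAT1 and XBP1, no neighbouring groups overlapped, and the H1299 groups lay below the A549 groups. The share of all genes with such an order was not counted. Between treatments, ATF4 did not pass the test in either line, nor did TRIB3 in H1299. HSPA5 also had its H1299 groups below its A549 groups, with overlap between its H1299 groups. CHAC1 had the same order of lines, but its H1299 BRM014 libraries (9.28 to 10.6 CPM) overlapped the A549 DMSO libraries (10.5 to 10.7 CPM). DDIT3 in A549 with BRM014 (18 to 18.7 CPM) reached the range of H1299 with DMSO (17.5 to 19.6 CPM). ASNS in A549 with BRM014 (128 to 148 CPM) overlapped H1299 with BRM014 (144 to 158 CPM), and lay just above H1299 with DMSO (119.8 to 128 CPM). For ATF5, each group overlapped its neighbours in the order H1299 BRM014, H1299 DMSO, A549 DMSO and A549 BRM014. The 10 genes together took 0.0992% to 0.105% of the counts in H1299 libraries and 0.152% to 0.158% in A549 libraries.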

How the data were processed

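RNA-seq of H1299 and A549 cells with BRM014 or DMSO was used (3 libraries per group). For either line, the authors deposited 1 table of unnormalized whole-number counts. The submitters' processing notes list STAR 2.7.3a, Bowtie 1.2.2, cutadapt 1.14, DESeq2 and featureCounts with build hg38. What each did, the gene annotation, the strand setting and the handling of reads with several matches were not given in the sources used. Counts of overlapping genes, and of ATF4, HSPA5 and PSAT1, which have processed pseudogenes, are therefore uncertain in that respect. Per the labels' protocols, ERCC spike-ins were added by cell number to total RNA, and 500 ng was depleted of ribosomal RNA; no row is named for a spike-in, so each difference is relative to the rest of its library.

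In R 4.3.3, edgeR 4.0.16 kept genes by filterByExpr (defaults: count minimum 10, total 15), scaled libraries by TMM and ran the two-sided quasi-likelihood test over all genes, with Benjamini-Hochberg adjustment at 0.05. "Rose", "fell" and "passed" refer to this threshold. Each line was fitted alone; the interaction and the difference in DMSO came from a joined fit over 22842 shared identifiers. Standard errors were taken as log2 fold change over the root of F, and intervals use the t quantile. The steps were tested on data simulated with 1 spread for all genes, no pairing, and planted changes of 1.5-fold and 2-fold. Of the 1.5-fold changes, 73% to 82% were recovered. Smaller changes, like most of those given here, were not simulated. Alternatives were DESeq2 1.42.0, its size factors in edgeR, library totals, limma-voom (limma 3.58.1), no filter, at least 5 CPM in 3 libraries, a test against a 1.2-fold change, a joined fit, a replicate block (in A549 with a and b numbered both ways), and each library left out. The labels do not say whether replicates were separate cultures, so p-values cover only the spread among these libraries, possibly technical. No replicate pair agreed within sampling noise (chi-square per degree of freedom 2.2 to 11.1, over genes with at least 20 counts).

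The members and lists were chosen with earlier results of these data known. All 10 members are named in every comparison. Their symbols come from the rule that chose them, since the tables hold identifiers alone and the name tables at hand, for mouse, matched 0 of 25530. The 76 further genes of the pathway listed by symbol, the genes most like ATF4 and the line markers were therefore not tested, and no sequences or positions are given.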

Additional observations from a re-analysis of the deposited data

Results flagged for a closer look

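For 6 of the 10 genes, H1299 and A549 responded differently to BRM014 by the interaction test in edgeR, against 19.5% of all genes tested. With a filter of at least 5 CPM in 3 libraries, that share was 26.3%. The log2 differences, H1299 minus A549, were 0.91 for TRIB3, 0.18 for XBP1, -0.28 for DDIT4, -0.31 for ATF5, -0.32 for DDIT3 and -0.37 for CHAC1. The calls of XBP1, DDIT4, ATF5 and CHAC1 were lost when single libraries were left out, and without libraries a and b TRIB3 was the gene of these 6 that still passed. TRIB3 fell in A549 (log2 fold change -0.80, adjusted p = 5.02e-08 in edgeR). The H1299 estimate for TRIB3 was 0.09 and did not pass (adjusted p = 0.164). Its level in DMSO also differed widely between the lines, and any link of that level to its response was not tested. A549 replicates varied more over all genes than H1299 replicates (common biological coefficient of variation 3.15% in H1299 and 5.04% in A549), and the joined fit uses 1 spread per gene for both lines.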

How the results depend on the processing

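Of the values of single genes, 141 of 150 kept their direction and side of the threshold over 15 alternatives in H1299, 153 of 170 over 17 in A549, 174 of 220 over 22 for the interaction and 213 of 220 over 22 in DMSO. The 1 reversal was ATF5 between the lines in DMSO, at 0.0669 with library totals. A test against a 1.2-fold change left 1 gene in H1299 (0 rises, 1 fall; 5.18% of all genes), 6 in A549 (3 rises, 3 falls; 16.1% of all genes) and 1 for the interaction (1 more positive, 0 more negative; 6.64% of all genes). For those 0 counts, edgeR's main test gave 3 rises and 4 more negative responses. Library totals gave 5 rises and 2 falls in H1299 and 6 and 3 in A549 (3 and 2, and 5 and 4, with TMM). For the interaction they gave 1 more positive and 6 more negative responses (2 and 4 with TMM). Library totals called 24.3% of all genes in H1299, 41.2% in A549 and 20.3% for the interaction. Over all genes the share of calls that were higher was 58.4% with library totals and 42.2% with TMM in H1299, 60.9% and 47.7% in A549, and 40.7% and 52.5% for the interaction. No filter on low counts also left 1 more positive response. Without single libraries, 5 to 6 genes passed in H1299 (3 to 4 rises, 2 to 3 falls) and 7 to 9 in A549 (4 to 5 rises, 3 to 4 falls). For the interaction it was 3 to 7 genes (1 to 2 more positive, 2 to 5 more negative). In DMSO it was 9 to 10. The fit without both A549 libraries a and b, chosen after seeing the data, left 1 A549 BRM014 library, so its calls are not counted here. Over all genes, 16.8% to 22.4% passed in H1299 and 28.3% to 38.9% in A549. For the interaction the share of all genes was 15.9% to 22.3%, and in DMSO 83.1% to 85.8%. The cause of these moves was not tested. With a replicate block, H1299 gave 5 genes as before (3 rises, 2 falls), against 21.8% of all genes. Same-numbered H1299 libraries deviated with correlations of -0.024, -0.0282 and 0.00768, so no pairing was taken. In A549 the block was fitted with a and b numbered both ways, chosen after seeing the data. With a as 1 and b as 2 (correlations 0.201, -0.0205 and, for replicate 3, 0.106), 10 genes passed, ATF4 included (adjusted p = 0.00636), as did 52.1% of all genes, against 37% without the block. For the interaction 8 genes passed, with ATF4 and ASNS added, against 27.7% of all genes. With a as 2 and b as 1 (-0.069 and -0.0241), 9 passed in A549, against 36.3% of all genes. For the interaction 6 did (1 more positive, 5 more negative), with ASNS added and XBP1 lost (adjusted p = 0.0563), against 18.6% of all genes. ATF5 in A549 passed either way (adjusted p = 0.000598 and 0.024). Neither numbering had every correlation over 0.1, and the main fit is unpaired, but whether libraries were paired was not settled. Library a and DMSO replicate 1 deviated from their group means in the same direction for all of the 10 genes except XBP1. The libraries with number 3 did so for all except HSPA5, and for b and DMSO replicate 2 the directions were mixed. With a as 1 and b as 2, the standard error of ASNS in A549 was 0.03, against 0.06 in the main fit. For the difference in DMSO, the block joined same-numbered libraries of both lines, so it does not test a pairing within a line. There 10 genes passed either way, against 86.1% of all genes with a as 1 and 85.5% with a as 2. Depth limits CHAC1 most, with 210 counts in its lowest library.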
